A study of Mus musculus with 88 samples.

Results

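Mouse embryonic stem cells (ESCs) without MTF2 were driven toward mesoderm in one series of cultures and toward endoderm in another, and the comparison asked which genes moved differently between the undifferentiated state and 48 h in the 2 series. It rests on 8 of the 88 samples of the study, the *Mtf2* null bulk RNA-seq libraries labelled undifferentiated (UD) or 48 h, with 2 libraries for each series and time. They were chosen by their labels alone, and no measured value entered the choice. For each gene the log2 change from UD to 48 h was estimated in each series, and the difference is the mesoderm change minus the endoderm change. A positive difference therefore marks a gene that ended relatively higher in mesoderm medium, and a negative one a gene that ended relatively higher in endoderm medium.

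All 8 libraries carried the *Mtf2* null genotype, a gene trap on both alleles, and the strain given for every sample was E14. Mesoderm cultures received Activin A, BMP4, the GSK3 inhibitor CHIR99021 and FGF2 to form mid primitive streak over 24 h, and then BMP4 with A-83-01, an inhibitor of the Activin and Nodal receptors. Endoderm cultures received Activin A, FGF2 and a lower dose of CHIR99021 to form anterior primitive streak, and then Activin A with DM3189, an inhibitor of BMP receptors. The Activin A doses of the streak media were printed in different units, so these doses were not compared. The lineage media were described as lasting another 48 h while the labels give 48 h, so whether 48 h counts from the start or from the change of medium could not be settled. Each series had UD libraries of its own by the labels. The duplicates were described as technical, so p-values measure the spread between these samples, which may be technical. The wild-type (WT) cells of both series were E14, whereas other wild-type ESCs were named as the matched background of the *Mtf2* null line, so a difference between genotypes cannot be told apart from a difference between lines.

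MTF2 is an accessory subunit of Polycomb repressive complex 2 (PRC2), which places the repressive H3K27me3 mark on the promoters of developmental genes, and it helps bring the complex to unmethylated CpG islands. BMP and Nodal are ligands of the TGFβ family that act through different SMAD proteins: BMP receptors switch on the *Id* genes, which encode inhibitors of basic helix-loop-helix factors, and Nodal or Activin receptors switch on *Lefty1* and *Lefty2*, which encode secreted inhibitors of Nodal. In the gastrulating embryo high Nodal signalling favours definitive endoderm at the anterior end of the primitive streak, and BMP favours lateral mesoderm at its posterior part.

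All 4 tested *Id* genes were relatively higher in mesoderm, *Id1* with the largest difference in that direction, and *Id2*, *Id3* and *Id4* had a promoter window in the RefSeq table of the GRCm38.p6 build, which runs from 250 bases before to 50 after the annotated start. The windows are shown because these genes moved together, with GGCGCC, a GC-rich motif of the BMP SMADs, and GTCTG or its reverse complement CAGAC, a SMAD element, in capitals. The window of *Id2* is at chr12:25096043-25096342 on the minus strand, that of *Id3* at chr4:136143572-136143871 on the plus strand and that of *Id4* at chr13:48260866-48261165 on the plus strand, each read 5′ to 3′ on the strand of the gene.
Id2: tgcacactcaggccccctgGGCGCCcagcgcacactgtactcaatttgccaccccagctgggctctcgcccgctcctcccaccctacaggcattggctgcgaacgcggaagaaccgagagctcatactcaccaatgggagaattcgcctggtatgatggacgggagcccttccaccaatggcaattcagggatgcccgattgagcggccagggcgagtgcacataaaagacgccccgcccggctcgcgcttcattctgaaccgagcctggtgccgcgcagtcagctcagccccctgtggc
Id3: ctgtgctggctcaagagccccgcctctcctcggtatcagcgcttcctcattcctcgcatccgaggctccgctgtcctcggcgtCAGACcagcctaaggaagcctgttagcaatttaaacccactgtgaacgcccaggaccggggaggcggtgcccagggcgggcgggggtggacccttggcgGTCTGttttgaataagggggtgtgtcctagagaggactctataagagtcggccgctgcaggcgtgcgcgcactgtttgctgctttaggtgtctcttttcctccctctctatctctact
Id4: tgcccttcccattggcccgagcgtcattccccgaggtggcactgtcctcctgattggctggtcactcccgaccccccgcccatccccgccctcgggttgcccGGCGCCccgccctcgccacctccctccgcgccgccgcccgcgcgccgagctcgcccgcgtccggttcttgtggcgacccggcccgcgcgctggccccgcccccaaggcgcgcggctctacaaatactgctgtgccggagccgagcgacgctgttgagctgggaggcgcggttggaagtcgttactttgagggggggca
*Id2* and *Id4* held 1 copy of GGCGCC each and *Id3* held 2 copies of the SMAD element. GGCGCC stood in 11.8% of all 27025 windows and GTCTG or CAGAC in 49.9%, so the second is a common match. A match of letters does not show binding. Of the 121 genes whose difference was called, 85 had a window, and *Id1*, *Lefty1*, *Lefty2* and *Pga5* were among those without one.

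The gene trap checked as labelled. *Mtf2* (ENSMUSG00000029267, GRCm38 chr5:108065674-108109004) stood between 30.3 and 38.7 CPM in the 16 *Mtf2* null libraries of both series. In the 16 WT libraries *Mtf2* stood between 208 and 500 CPM, so a residual transcript was counted in the *Mtf2* null ones. CPM here are counts scaled to the library total multiplied by the TMM scaling factor of that library, the scaling of the main fit. Totals of the 8 libraries lay between 10960029 and 15032309 estimated counts.

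The labels of the lineages were checked against markers. The 5 tested mesoderm markers (*Hand1*, *Kdr*, *Pdgfra*, *Isl1* and *Tbx20*) summed to 67.9 to 70.2 CPM at 48 h in mesoderm and 51.5 to 52 CPM in endoderm, and most of this was *Pdgfra*, the PDGF receptor, whose change was 1.82 in mesoderm and 1.90 in endoderm. *Kdr*, a receptor of early vascular and cardiac mesoderm, did not pass 1.03 CPM, *Isl1* stayed below 1 CPM and *Foxf1* was too low to test. The tested endoderm markers (*Sox17*, *Foxa2*, *Cxcr4* and *Hhex*) summed to 31.3 to 40.6 CPM at 48 h in mesoderm and 59.5 to 68.6 CPM in endoderm, against 13.2 to 19.3 CPM in the UD libraries of both series. Both series thus held mesoderm and endoderm transcripts, and the names mesoderm and endoderm below refer to the medium. Fewer cells of a type and less RNA per cell cannot be told apart in bulk samples.

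Transcripts of other cells were present in both arms. The pluripotency factors *Pou5f1*, *Nanog*, *Esrrb* and *Zfp42* summed to 954 to 981 CPM at 48 h in mesoderm and 937 to 1010 CPM in endoderm, from 1920 to 2200 CPM at UD. The 4 tested markers of parietal and visceral endoderm (*Dab2*, *Sparc*, *Lama1* and *Ttr*), extraembryonic cells that share genes with definitive endoderm, summed to 2060 to 2170 CPM in mesoderm and 2330 to 2630 CPM in endoderm at 48 h, whereas WT libraries at 48 h held 134 to 323 CPM. The *Mtf2* null UD libraries already held 1020 to 1230 CPM in mesoderm and 896 to 1130 CPM in endoderm. *Lama1* and *Sparc* made up most of these *Mtf2* null sums. Neural markers summed to 40 to 40.3 and 30 to 37.6 CPM, trophoblast markers to 10.8 to 13.7 and 7.55 to 8.58 CPM, and the 1 tested blood marker did not pass 1.12 CPM. The part of these cells in the differences below was not tested.

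Both shared and separate changes were found in the 2 series. With the quasi-likelihood test of edgeR across 19601 genes, a gene was called at an adjusted p under 0.001 with a log2 value over 1 in size. From UD to 48 h 813 genes rose and 481 fell in mesoderm (4.15% and 2.45%, 6.60% of genes called in all), and 1186 rose and 592 fell in endoderm (6.05% and 3.02%, 9.07% in all). Scaled by library totals alone, 1093 rose and 356 fell in mesoderm, with the median of all genes shifted by 0.13 there and by 0.12 in endoderm. Of the genes called in the main analysis 567 rose in both and 298 fell in both, 423 were called in mesoderm only and 907 in endoderm only. For 588 of the 865 shared genes the changes differed by less than 0.5. The liver and visceral endoderm factor *Hnf4a* was among the shared rises, from 0.944 and 1.15 CPM to 13.2 and 16.3 CPM in mesoderm and from 0.825 and 1.26 CPM to 18.9 and 14.8 CPM in endoderm. *Amot*, an inhibitor of the co-activator YAP, rose from 14.7 and 19 CPM to 167 and 175 CPM and from 15.9 and 14 CPM to 155 and 106 CPM. *Clic6*, *Adora1* and the netrin receptor gene *Unc5b* completed the 5 named shared rises. *Txnip*, an inhibitor of glucose uptake, fell from 641 and 725 CPM to 59.4 and 54.5 CPM in mesoderm and from 590 and 648 CPM to 48.8 and 41.1 CPM in endoderm, beside *Gjb1*, *Hal*, *Olfr1459* and *Cspg5*.

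The 2 series differed in 121 genes, or 0.617% of those tested. Of these 42 were relatively higher in mesoderm and 79 relatively higher in endoderm. In each of the 121 the 48 h libraries of one medium all lay above those of the other. The genes were called on these same libraries, so this separation adds no support, and its share over all genes was not counted. Of the 42 genes, 19 rose and 2 fell in mesoderm, while 1 rose and 20 fell in endoderm. Of the 79 genes, 8 rose and 26 fell in mesoderm, while 50 rose and 5 fell in endoderm. Both changes were called in opposite directions for 6 genes, *Id1*, *Spink1* and *Nrp2* up in mesoderm and down in endoderm, and *Lefty1*, *Lefty2* and *Ap3b2* the other way round. For 12 of the 121 genes neither change was called on its own.

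**Figure D1:**
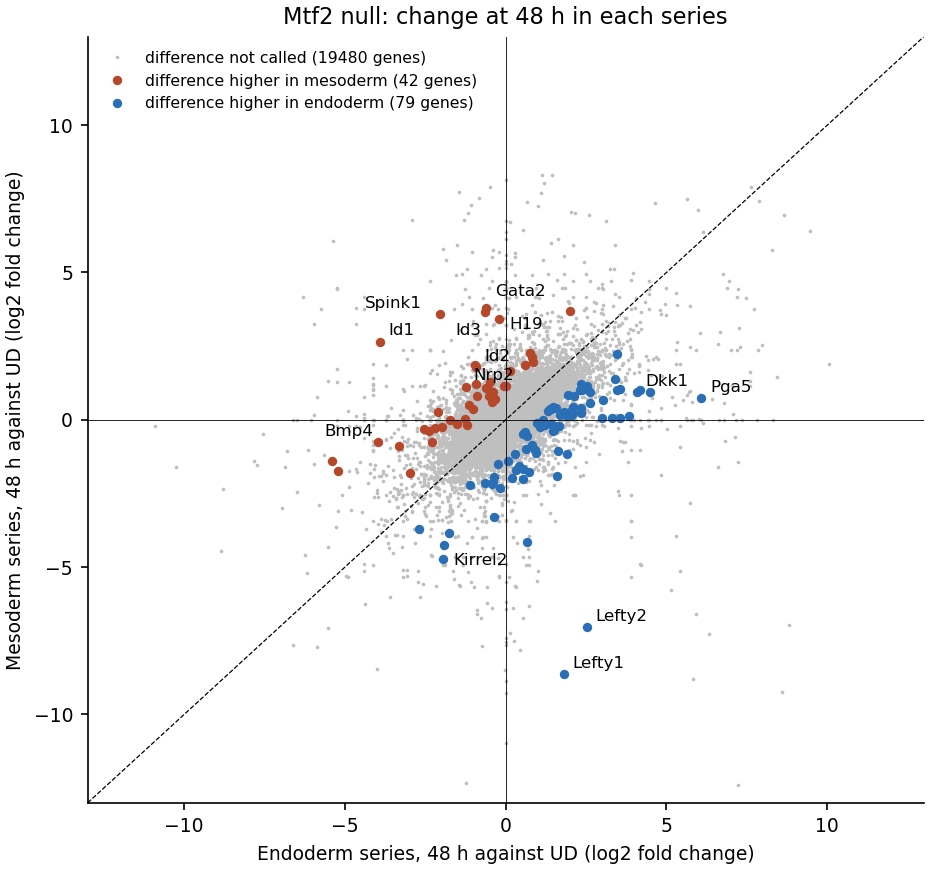
Log2 change from UD to 48 h in mesoderm medium (y axis) against the log2 change in endoderm medium (x axis) for the 19601 genes tested in *Mtf2* null cells. Each point is a gene, coloured where the difference of the 2 changes was called, and the 42 genes relatively higher in mesoderm and 79 relatively higher in endoderm lie off the diagonal, with *Id1* on one side and *Lefty1* and *Lefty2* on the other.

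BMP targets led the genes relatively higher in mesoderm. *Id1* (chr2:152736251-152737410) went from 36.7 and 52.9 CPM at UD to 284 and 276 CPM at 48 h in mesoderm, and from 41.4 and 57.7 CPM to 3.86 and 2.74 CPM in endoderm. All 4 UD libraries lay between the 2 pairs of 48 h libraries. The difference was 6.55 ± 0.32 (SE, 2 libraries a group, edgeR adjusted p = 1.37e-15). *Id3* (chr4:136143497-136145755) went from 10.3 and 11.7 CPM to 141 and 135 CPM in mesoderm, and stood at 11.9 and 12.2 CPM at UD and 6.55 and 8.71 CPM at 48 h in endoderm. Its difference was 4.30 ± 0.24 (edgeR adjusted p = 1.35e-14), and its change in endoderm, -0.65, was not called. *Id2* (chr12:25093799-25097140) went from 48 and 47.3 CPM to 171 and 158 CPM in mesoderm, and from 57.3 and 53.9 CPM to 26.9 and 31.8 CPM in endoderm (difference 2.71 ± 0.23, edgeR adjusted p = 5.28e-10). *Id4* moved least of the 4, from 6.33 and 5.13 CPM to 13.4 and 14.4 CPM in mesoderm against 10.5 and 8.38 CPM and then 6.26 and 7.27 CPM in endoderm. Its difference was 1.75 ± 0.28 (edgeR adjusted p = 0.000171), and the call was lost in 4 of 8 fits that left out 1 library. The 2 UD pairs of *Id4* did not overlap, with mesoderm the lower.

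The ligand *Bmp4* (chr14:46383520-46390669) was among these genes through endoderm. It stood at 27.7 and 32.4 CPM at UD and 21.8 and 14 CPM at 48 h in mesoderm, and fell from 28.7 and 29.2 CPM to 2.04 and 1.65 CPM in endoderm. The mesoderm libraries at 48 h were below every UD library but above both endoderm libraries, the mesoderm change of -0.75 was not called, and the difference was 3.22 ± 0.37 (edgeR adjusted p = 4.18e-07). Of the 23 tested genes of a list of the BMP pathway and its targets, the 5 called were the 4 *Id* genes and *Bmp4*, all relatively higher in mesoderm, against 0.214% of all genes in that direction. The median difference of the list was 0.11, beside -0.02 over all genes. In mesoderm 8 of the 23 rose and none fell (median change 0.77), beside 4.15% and 2.45% of all genes. Among the 8 were the homeobox gene *Msx2*, the inhibitory SMAD gene *Smad6* and the ligand genes *Bmp6* and *Bmp7*. In endoderm 3 rose and 2 fell (median 0.13), beside 6.05% and 3.02% of all genes, and *Bmp6*, *Bmp7* and *Msx2* were the 3 that rose. *Msx2* reached 13.6 and 10.6 CPM in mesoderm and 2.91 and 3.16 CPM in endoderm, and its difference of 2.24 ± 0.48 missed the threshold (edgeR adjusted p = 0.00573).

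The Nodal inhibitors led the other direction. *Lefty1* (chr1:180935022-180938400) stood at 38.2 and 38 CPM at UD in mesoderm and at 0 and 0.16 CPM at 48 h, while in endoderm it went from 33.2 and 34 CPM to 139 and 95.6 CPM. Mesoderm medium left 2 counts in both libraries together, against 3309 in the endoderm libraries, a ratio of 1364 with a 95% counting interval of 377 to 11264. The fall in mesoderm itself was 445-fold, with an interval of 123 to 3684. *Lefty2* (chr1:180893108-180899103) went from 31.4 and 27.8 CPM to 0.369 and 0.08 CPM in mesoderm, and from 31.3 and 26.2 CPM to 191 and 144 CPM in endoderm. Its 48 h libraries held 5 counts in mesoderm and 4720 in endoderm, a ratio of 778 (333 to 2397). These intervals cover counting error only. The fitted differences of -10.44 ± 0.74 and -9.58 ± 0.56 (edgeR adjusted p = 1.78e-11 and 5.93e-14) depend on the handling of counts near 0. The 2 genes are close paralogs, so reads may have been divided between them, but both moved the same way.

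*Pmepa1*, a feedback inhibitor of Activin signalling, was the third called gene of 17 tested in the list of the Nodal and Activin pathway. It stood at 14.2 and 13.9 CPM at UD and 12.1 and 9.84 CPM at 48 h in mesoderm, and rose from 15.8 and 15 CPM to 48.7 and 39 CPM in endoderm (difference -1.87 ± 0.23). Its endoderm libraries at 48 h were above all others. All 3 called genes were relatively higher in endoderm, against 0.403% of all genes in that direction, and the list's median difference was -0.27. Other members moved in the same direction in both media, by unequal amounts, with no called difference. On the log2 scale the co-receptor gene *Tdgf1* fell by 3.19 in mesoderm and by 2.51 in endoderm, and *Smad3* rose by 1.52 and 1.72. *Inhbb*, which encodes an Activin subunit, fell by 4.59 in mesoderm and further, by 6.24, in endoderm. Its difference was called in the fit with no filter beyond a count above 0.

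**Figure D2:**
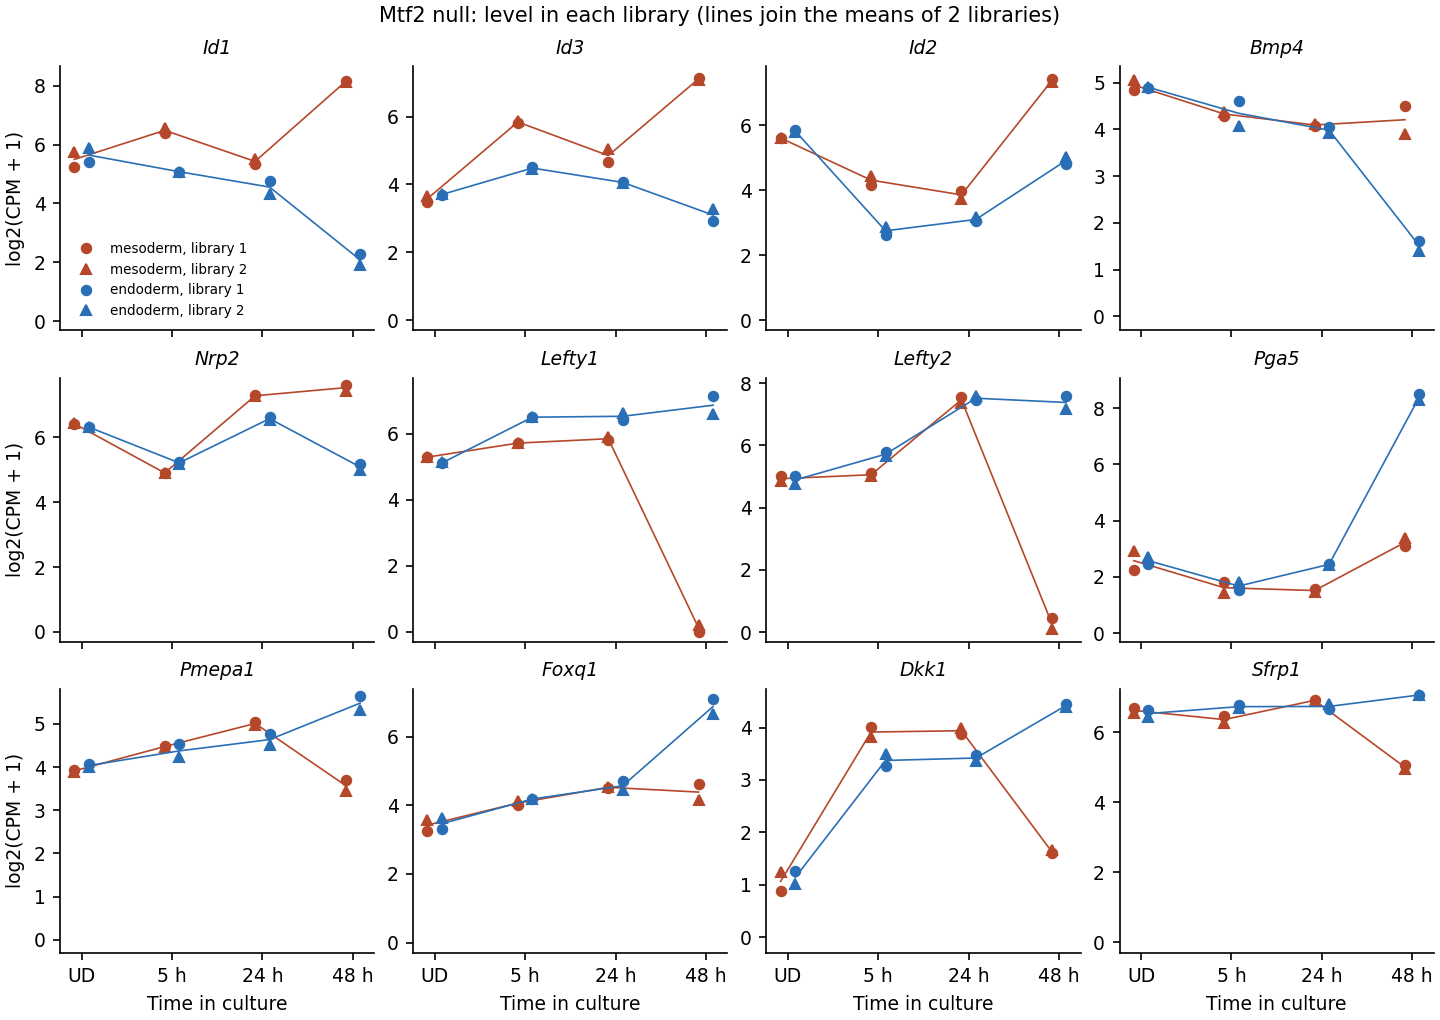
Level as log2(CPM + 1) (y axis) of 12 genes in each *Mtf2* null library at UD, 5 h, 24 h and 48 h (x axis, time points evenly spaced), with the mesoderm and endoderm series in different colours and lines through the means of 2 libraries. At 48 h the mesoderm libraries lie above the endoderm libraries for *Id1*, *Id3*, *Id2*, *Bmp4* and *Nrp2* and below them for the other 7 genes.

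Among the genes relatively higher in endoderm the largest difference after those of the *Lefty* genes was that of *Pga5*, which encodes pepsinogen, a stomach protease precursor. *Pga5* (chr19:10668956-10678071) went from 4.45 and 5.53 CPM to 366 and 313 CPM in endoderm, and stood at 3.68 and 6.6 CPM at UD and 7.47 and 9.36 CPM at 48 h in mesoderm. The endoderm libraries at 48 h stood apart from all others, including those of endoderm at 24 h, at 4.53 and 4.35 CPM. The difference was -5.36 ± 0.27 (edgeR adjusted p = 1.76e-15).

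Among Wnt genes the inhibitors *Dkk1* and *Sfrp1* were relatively higher in endoderm. *Dkk1*, a secreted antagonist of Wnt co-receptors, rose from 1.4 and 1.01 CPM to 20.9 and 20 CPM in endoderm and stood at 0.85 and 1.36 CPM and then 2.03 and 2.16 CPM in mesoderm (difference -3.14 ± 0.46). *Sfrp1*, which binds Wnt ligands, fell from 103 and 92.1 CPM to 32.1 and 29.8 CPM in mesoderm, and stood at 98.3 and 85 CPM and then 132 and 133 CPM in endoderm (difference -2.19 ± 0.22). *Dkk1* had also risen in mesoderm, to 13.7 and 15 CPM at 24 h, before its lower level at 48 h. By the change from UD to 48 h alone, *Dkk1* rose in endoderm and *Sfrp1* fell in mesoderm. They were the 2 called of 23 tested genes of the Wnt list, beside 0.403% of all genes in that direction, and its median difference was -0.33. *Axin2*, another feedback inhibitor, had a difference of 0.65 that was not called. In mesoderm 4 of the 23 rose and 3 fell (median 0.83), beside 4.15% and 2.45% of all genes. In endoderm 5 rose and none fell (median 0.89), beside 6.05% and 3.02%, with *Wnt4* and *Fzd8* up in both media.

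Genes of the FGF and ERK pathway split. *Spry4*, a feedback inhibitor that ERK activity switches on, stood at 255 and 258 CPM at UD and 218 and 201 CPM at 48 h in mesoderm, and fell from 237 CPM in both UD libraries to 52.5 and 50.3 CPM in endoderm (difference 1.92 ± 0.20). *Il17rd*, another feedback inhibitor of FGF signalling, went the opposite way, from 80.8 and 75.6 CPM to 37.8 and 32.3 CPM in mesoderm against 70.9 and 67.6 CPM and then 84.8 and 84.9 CPM in endoderm (difference -1.45 ± 0.19). The ligand gene *Fgf15* rose from 2.47 and 2.93 CPM to 10.1 CPM in both endoderm libraries, but its difference of -3.07 ± 0.54 was lost in 7 of 8 fits that left out 1 library. These 3 were called of 20 tested (median -0.06), beside 0.617% of all genes. In mesoderm 1 rose and 2 fell, beside 4.15% and 2.45% of all genes. In endoderm 4 rose and 5 fell, beside 6.05% and 3.02%, with *Etv4*, *Spry2* and *Spred1* among the endoderm falls.

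Other leading genes relatively higher in mesoderm had diverse roles. *Gata2*, a factor of blood progenitors and trophoblast, rose from 1.61 and 1.89 CPM to 24.3 and 23.7 CPM in mesoderm, and stood at 2.39 and 2.01 CPM and then 1.67 and 1.23 CPM in endoderm (difference 4.38 ± 0.60). *Spink1*, a trypsin inhibitor gene, went from 1.79 and 2.3 CPM to 23 and 26 CPM in mesoderm and from 2.06 and 3.02 CPM to 0.873 and 0.343 CPM in endoderm (5.63 ± 0.54). For both genes the mesoderm libraries at 48 h lay above the other 6. *Nrp2*, a co-receptor for semaphorins and VEGF, went from 84 and 85.8 CPM to 197 and 173 CPM in mesoderm and from 78.4 and 79.2 CPM to 35.2 and 31.1 CPM in endoderm (2.37 ± 0.19). The paternally expressed *Peg10* was at 881 and 824 CPM and then 1010 and 1020 CPM in mesoderm, and fell from 841 and 792 CPM to 196 and 181 CPM in endoderm (2.37 ± 0.17). The imprinted *H19* RNA rose from 4.82 and 5.34 CPM to 62.1 and 47.5 CPM in mesoderm, while endoderm went from 5.03 and 5.11 CPM to 6.47 and 2.26 CPM. Its difference of 3.65 ± 0.58 lost its call in 6 of 8 fits that left out 1 library. The 12 leading genes of this direction were completed by *Coch* (2.80, lost in 3 of 8 such fits), the muscle gene *Ttn* (2.41, lower in both media at 48 h) and *AU015836* (2.21).

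The other leading genes relatively higher in endoderm were mostly low at UD. *Nt5e*, which encodes the ecto-enzyme CD73, rose from 1.07 and 1.01 CPM to 25 and 22.4 CPM in endoderm. In mesoderm it stood at 2.17 and 1.26 CPM at UD and 4.24 and 2.48 CPM at 48 h (difference -3.56 ± 0.40). At 24 h *Nt5e* had stood at 34.1 and 31.7 CPM in mesoderm and 21.6 and 21.5 CPM in endoderm. *Flt1*, a VEGF receptor, rose from 1.73 and 2.18 CPM to 21.6 and 17.5 CPM in endoderm and ended at 2.67 and 2.24 CPM in mesoderm (-3.25 ± 0.39). *Tent5a*, a poly(A) polymerase gene, reached 38.1 and 29.3 CPM in endoderm and 4.79 and 4.08 CPM in mesoderm (-3.16 ± 0.40). In all 3 the endoderm libraries at 48 h lay above every other of the 8. *Irs4*, *Enpp2* and *Zfp819* had differences of -3.72, -2.94 and -2.96, and the call of *Enpp2* was lost in 6 of 8 fits that left out 1 library. *Kirrel2*, a cell adhesion gene, fell in both media, from 55 and 57.8 CPM to 2.21 and 2.08 CPM in mesoderm and from 50 and 51.4 CPM to 12.6 and 13.4 CPM in endoderm (-2.75 ± 0.29).

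Of the lists of definitive endoderm and of lateral and cardiac mesoderm 1 gene was called in the difference, beside 0.617% of all genes. Of 16 tested genes of definitive endoderm, 8 rose in endoderm (median 1.29) and 4 rose in mesoderm (median 0.58), beside 6.05% and 4.15% of all genes. Only the repressor gene *Prdm1* was called in the difference (list median -0.50). *Prdm1* fell from 37.9 and 29.2 CPM to 7.56 and 9.6 CPM in mesoderm and stood at 32.7 and 28.2 CPM and then 33.8 and 36.6 CPM in endoderm, so its difference of -2.17 ± 0.24 was a loss in mesoderm. *Sox17* ended at 21.6 and 16.7 CPM in mesoderm and 33.3 and 30.1 CPM in endoderm, and *Foxa2* at 10.5 and 8.08 CPM and 19.3 and 15.3 CPM. *Lhx1* rose in endoderm from 3 counts in the UD libraries together to 147 at 48 h, 41.6-fold with an interval of 14.0 to 204, and ended at 5 counts in mesoderm. Of 19 tested genes of lateral and cardiac mesoderm, 4 rose in mesoderm (median 0.69) and 5 in endoderm (median 1.66), beside 4.15% and 6.05% of all genes. None of the 19 was called in the difference (median -0.12). *Hand1*, a factor of lateral and extraembryonic mesoderm, rose to 9.86 and 7.76 CPM in mesoderm against 1.24 and 0.48 CPM in endoderm. Its difference was 1.99 ± 1.11 (edgeR adjusted p = 0.544), while the 48 h libraries compared directly differed by 3.35 (edgeR adjusted p = 9.94e-06).

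The counts of the remaining lists stand beside 0.617% of all genes called in the difference. Counts of rises stand beside 4.15% of all genes in mesoderm and 6.05% in endoderm. None of 15 tested genes of the primitive streak was called in the difference (median -0.31), nor any of 17 of visceral and parietal endoderm (median -0.54), of which 9 rose in mesoderm and 11 in endoderm, beside 4.15% and 6.05% of all genes. Of 11 vascular and blood progenitor genes *Gata2* was called upward and *Runx1* downward (-1.65, lost in 5 of 8 fits that left out 1 library), with a median of -0.11. Of 9 trophoblast genes *Gata2* was called (median 1.99), and 6 rose in mesoderm (median change 2.77) against 2 in endoderm (median 0.58), among them *Ascl2* and *Gata3* in both. Its median difference was the largest in size of the 20 lists. When the 48 h libraries were compared directly, 4 of the 9 were called as higher in mesoderm, beside 166 of all 19601 genes in that direction. Of 18 pluripotency genes 10 fell in mesoderm and 9 in endoderm (2.45% and 3.02% of all genes) and none was called in the difference (median -0.15). Of 10 genes of the formative epiblast, the state that follows naive pluripotency, 6 rose in mesoderm and 8 in endoderm (median difference -0.48). All 18 genes of sterol synthesis and uptake rose in endoderm (median 1.87) and 14 rose in mesoderm (median 1.49), beside 6.05% and 4.15% of all genes, with none called in the difference (median -0.33).

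No difference was called in 14 neural genes (median -0.15), 19 epithelial and mesenchymal genes (-0.09), 11 *Hox* genes (-0.44), 12 PRC2 subunit genes (0.12), 14 p53 targets (0.01) or 15 genes of G2 and mitosis (-0.14). Of these lists 4 neural genes rose in each medium, 3 epithelial genes in mesoderm and 4 in endoderm, 1 *Hox* gene in endoderm and 3 p53 targets in each, *Btg2*, *Cdkn1a* and *Phlda3*. Over all genes 4.15% rose in mesoderm and 6.05% in endoderm. Among PRC2 subunits *Eed* fell by 1.13 in mesoderm and by 1.30 in endoderm. Of 20 genes of glycolysis and the hypoxia response, *Pfkp* (1.61) and the glucose transporter gene *Slc2a1* (1.02, lost in 3 of 8 fits that left out 1 library) were called as relatively higher in mesoderm, beside 0.214% of all genes in that direction (median -0.08).

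**Figure D3:**
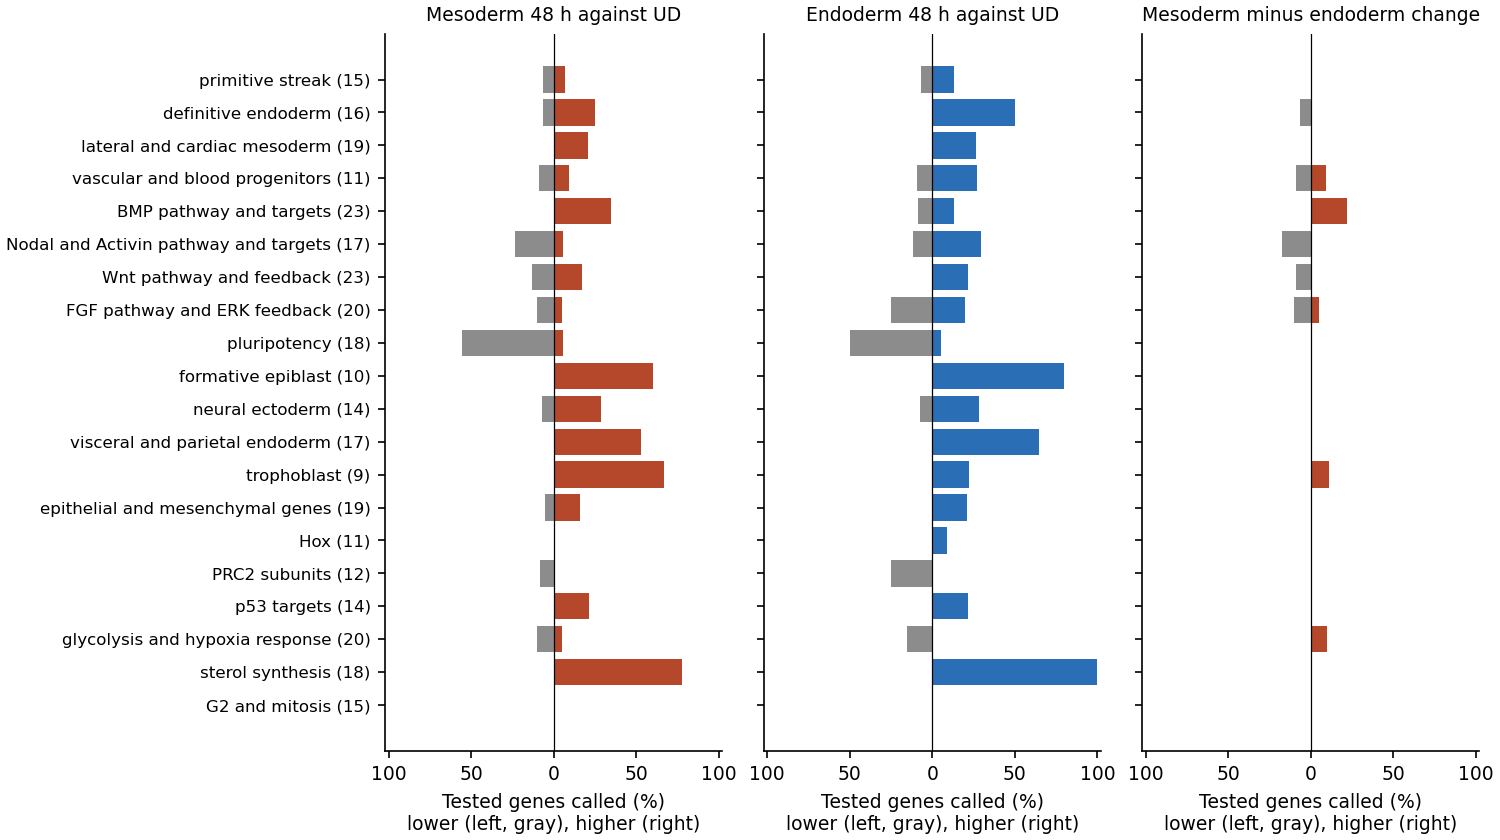
Percent of the tested genes of each of 20 lists (y axis) that were called higher (to the right of 0) or lower (to the left of 0) in the mesoderm change, the endoderm change and their difference (3 panels, x axis in percent of tested genes). Sterol synthesis rose in both media with no called difference. In the difference 5 of 23 BMP genes and 3 of 17 Nodal and Activin genes were called, beside 0.617% of all genes.

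Few genes were called at the earlier times. At 24 h no gene was called in the difference of the changes (0.00% by edgeR, 790 genes at an unadjusted p under 0.05, and 3 called by DESeq2), and at 5 h there were 5 (0.0255%), *Id2* (1.94) and *Id3* (1.53) as relatively higher in mesoderm and *Ppp1r10*, *Taok3* and *Liph* as relatively higher in endoderm. *Id1* at 5 h was at 83.6 and 93.3 CPM in mesoderm and 32.8 CPM in both endoderm libraries, and at 24 h at 39.9 and 44.2 CPM and 26.4 and 19.2 CPM, so the mesoderm libraries were higher at both times. *Lefty2* at 24 h was at 188 and 165 CPM in mesoderm and 174 and 191 CPM in endoderm, which overlap, before its fall in mesoderm. *Dkk1* at 24 h was at 13.7 and 15 CPM in mesoderm and 10.1 and 9.29 CPM in endoderm, the reverse of its order at 48 h.

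Compared directly at 24 h, without UD libraries, 56 genes were called (0.286%). A direct comparison keeps offsets already present between the UD libraries, as for *Gm8797* (5.01 at UD, 4.80 at 24 h) and *Ptar1* (-2.06 and -1.85). How many of the 56 were such genes was not counted. The 56 included 4 of the 15 tested primitive streak genes, *T*, *Sp5*, *Cdx2* and *Cdx1*, all higher in mesoderm, whereas none of the 15 was called in the difference of the 24 h change. *T*, the Brachyury gene of the primitive streak, was at 40.6 and 38.1 CPM in mesoderm and 3.53 and 3.61 CPM in endoderm, and at 48 h no *Mtf2* null library of either series passed 0.08 CPM. *Cdx2* was at 4.72 and 4.49 CPM against 0.453 and 0.958 CPM at 24 h, and the Wnt targets *Sp5* and *Axin2* were higher in mesoderm by 2.84 and 1.32 on the log2 scale. Over 11037 genes above 5 CPM, the root mean square log2 distance between the series was 0.31 at UD, 0.472 at 5 h, 0.355 at 24 h and 0.498 at 48 h, against 0.663 from UD to 48 h within mesoderm and 0.723 within endoderm.

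UD libraries of the 2 series were close but not identical. The second UD libraries of the 2 series differed by 8.2 times the sampling noise and the first by 13.1. UD libraries of unlike number differed by 23.7 and 18 between the series. The UD duplicates within mesoderm differed by 13.8 and those within endoderm by 12.5. Whether the UD libraries share material was not tested. Between them 38 genes were called (0.194%), none of which was among the 121. When the 48 h libraries were compared directly, 367 genes were called (1.87%), and 112 of the 121 were among them in the same direction. The 367 also hold genes already apart at UD, such as *Gm8797* (5.32 at 48 h) and *Ptar1* (-1.66). *Fgf5*, a formative epiblast gene, was at 10.7 and 11.7 CPM in endoderm and 1.2 and 0.96 CPM in mesoderm at 48 h and was called in the direct comparison (-3.37), while its difference of -2.51 was not.

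WT cells showed the same direction for most of these genes. In the WT series 264 genes were called by the same difference (1.35%), and of the 121 genes 103 had the same sign in WT and 55 were called there in the same direction. The share of all genes with the same sign in both genotypes was not counted. WT and *Mtf2* null libraries of a medium belong to the same series, and series and culture batch cannot be told apart. *Id1* at 48 h in WT was at 372 and 358 CPM in mesoderm and 5.12 and 1.66 CPM in endoderm (difference 6.68), and *Lefty1* at 0.0662 and 0 CPM against 69.4 and 37.6 CPM. *Pga5* in contrast stood between 1.02 and 1.99 CPM in all 8 WT libraries at UD and 48 h, with a WT difference of -0.16. The difference between genotypes was tested for all genes and 20 were called (0.102%), of which 11 were among the 121. *Pga5* was one of them (-5.20). *Lrpap1*, a chaperone of LDL receptor proteins, was the 1 gene called in both genotypes with opposite signs, at -1.35 in *Mtf2* null and 1.02 in WT cells. *Id2*, *Id3* and *Id4* had larger differences in WT (4.42, 6.24 and 3.85), but the test between genotypes did not call them (edgeR adjusted p = 0.00636, 0.00646 and 0.0184).

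**Figure D4:**
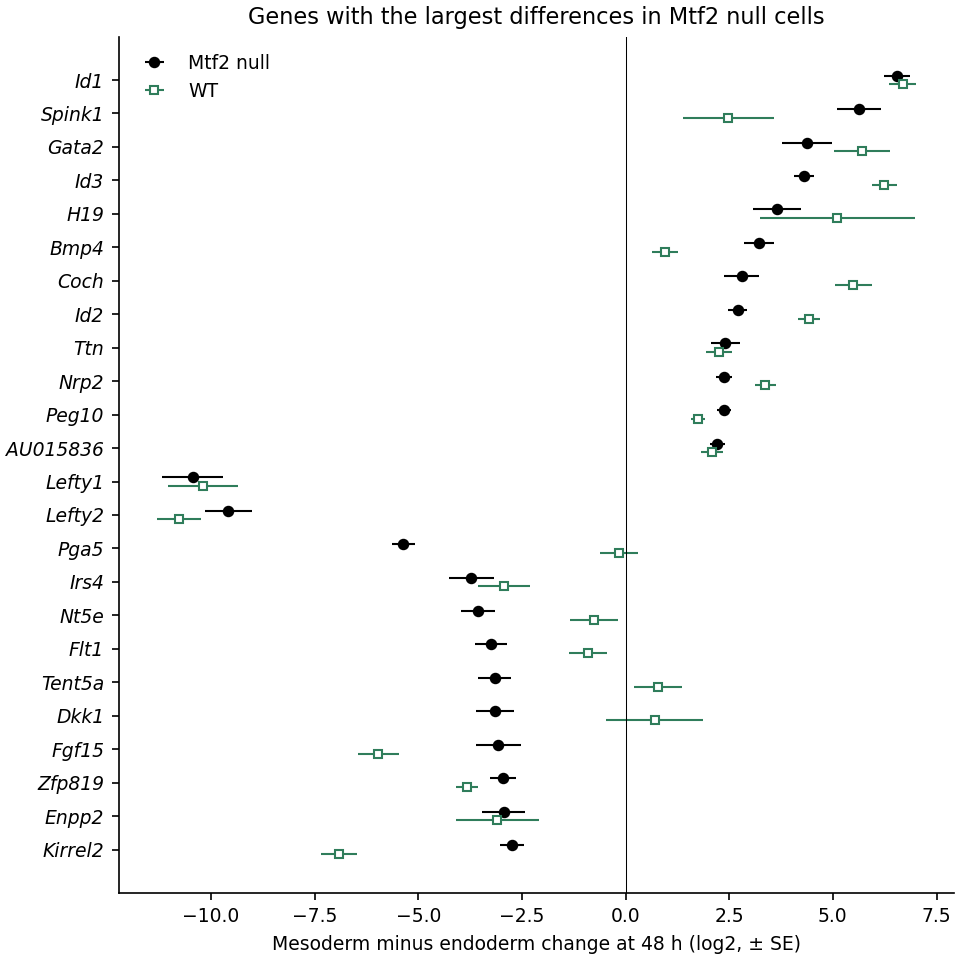
Difference of the 48 h change, mesoderm minus endoderm, on the log2 scale (x axis) for the 24 leading genes (y axis) in *Mtf2* null and WT cells, each point an estimate from 2 libraries a group and each bar 1 SE. *Id1* lies close in both genotypes, at 6.55 in *Mtf2* null and 6.68 in WT cells, whereas *Pga5* is at -5.36 and -0.16. *Lefty1* is at -10.44 and -10.20, but both values depend on the handling of counts near 0, so their closeness is not a measured one.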

How the data were processed

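Bulk RNA-seq libraries from rRNA-depleted total RNA were sequenced by the authors, aligned with Bowtie2 and quantified with Salmon on GRCm38, per the labels and methods; versions and annotation were not given in the sources used here. The authors deposited estimated counts per gene, 1 table per series, of which 74.9% of values in mesoderm (53697 genes) and 73.1% in endoderm (54393 genes) were whole. The tables list different genes, so annotations may differ; the 53668 shared genes were used and counts rounded. For the embryoid body single cells the authors deposited UMI counts per cell and a cluster for each cell.

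Samples were grouped by the labels. All 48 directed libraries (9111898 to 16898294 counts) were fitted with 24 group means in edgeR 4.0.16 (R 4.3.3): TMM scaling, filterByExpr (count 10, total 15), quasi-likelihood F test, Benjamini-Hochberg adjustment over 19601 genes. SE is the log2 value divided by the square root of F. Each table's UD libraries served as its own baseline, and series and culture batch cannot be told apart. The duplicates of a group differed by 5.49 to 13.8 times the sampling noise, so none was a copy. Sequences came from RefSeq and gene positions from GENCODE (GRCm38). Intervals use Python 3.11.15 and scipy 1.17.1 (exact binomial, 95%).

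Named genes were the 12 with the largest called difference in each direction with at least 10 CPM in 1 group and no predicted-gene name, up to 5 each way that changed oppositely, shared a change within 0.5, or differed between genotypes, and members of the lists. The genes and lists were chosen with earlier results of these data known. Data were also simulated with the fitted trend of the spread but no gene-by-gene differences in spread, so the rates may flatter the test. Of 50 spiked genes at each size the difference of the 48 h change was called for 54% at a log2 size of 1.5. It was called for 80% at 2, 88% at 3 and 98% at 5, with 0 false calls of 19601 genes. Spiked genes had at least 1 CPM in the other groups of the comparison. Alternatives were DESeq2 1.42.0, other scalings, filters, sample sets and thresholds, and leaving out each library.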

Additional observations from a re-analysis of the deposited data

Results flagged for a closer look

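The difference of the 48 h change, mesoderm minus endoderm, differed between *Mtf2* null and WT cells for 8 genes named by the rule of the 5 largest in each direction, by the edgeR test of the difference itself (20 genes called in all, 3 positive). Positive values mark genes relatively higher in mesoderm in *Mtf2* null than in WT cells.

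*Kirrel2* differed by 4.16. It fell in both media in *Mtf2* null cells, as given above, while WT libraries went from 21.8 and 16.2 CPM to 0.0662 and 0.247 CPM in mesoderm and from 17.1 and 16.9 CPM to 18.6 and 15.2 CPM in endoderm. *Myrf*, a membrane-bound transcription factor gene, differed by 2.30. It went from 71.7 and 74.8 CPM to 27.8 and 24.7 CPM in mesoderm and from 64.4 and 67.2 CPM to 14.3 and 16.5 CPM in endoderm in *Mtf2* null cells, and WT endoderm libraries at 48 h stood at 77.9 and 61.2 CPM. *Ctbp2*, a transcriptional co-repressor gene, differed by 1.17, with 312 and 284 CPM in mesoderm and 258 and 278 CPM in endoderm at 48 h in *Mtf2* null cells and 143 and 146 CPM against 303 and 300 CPM in WT cells.

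*Lrrc15* differed by -5.31. In *Mtf2* null cells it reached 13.3 and 14.9 CPM in mesoderm and 11.3 and 9.67 CPM in endoderm, whereas in WT cells it reached 17.5 and 12.8 CPM in mesoderm and 0.171 and 0.37 CPM in endoderm. *Pga5* differed by -5.20, since its rise in endoderm was absent from the WT libraries. *Xaf1* differed by -4.27, with 2.03 and 1.44 CPM in mesoderm and 4.58 and 2.95 CPM in endoderm at 48 h in *Mtf2* null cells, and 5.43 and 3.79 CPM against 0.597 and 0.832 CPM in WT cells. *Tfap2c*, a factor of trophoblast and germ cells, differed by -2.99, with 89.4 and 68.1 CPM in mesoderm and 36.3 and 31.2 CPM in endoderm in *Mtf2* null cells, and 33.5 and 47.2 CPM against 2.22 CPM in both libraries in WT cells. *Sfrp1* differed by -2.54, because WT libraries were low at 48 h in both media, at 33.9 and 26.1 CPM and 26.5 and 18.6 CPM.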

How the results depend on the processing

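The count of 121 genes moved with the samples fitted, the filter and the threshold. It was 30 when only the 8 libraries were fitted, 272 with no filter beyond a count above 0, 452 at an adjusted p under 0.05 with no fold limit, 46 with a log2 value over 2 and, added after the data were seen, 367 when the 48 h libraries were compared directly. It ranged from 75 to 95 when 1 of the 8 libraries was left out, with 75 to 80 genes without either UD or either 48 h library of mesoderm or the first endoderm UD library, and fits with other scalings, DESeq2, a filter of 1 CPM, 16 libraries or unrounded counts gave 100 to 140. Of the 121 genes 56 were called in all 8 fits that left out 1 library, and none changed sign in them or in 9 other planned fits. The 8-library fit kept 29 of the 121 and lost, of the genes named above, *H19*, *Coch*, *Ttn*, *Irs4*, *Nt5e*, *Flt1*, *Tent5a*, *Dkk1*, *Fgf15*, *Enpp2*, *Prdm1*, *Runx1*, *Id4*, *Pmepa1*, *Pfkp* and *Slc2a1*; the cause was not tested beyond the fewer samples.

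Leaving out the second mesoderm UD library ended the calls of *Irs4* (-3.45) and *Dkk1* (-2.80). The calls of *H19* (3.09 to 3.71) and *Enpp2* (-3.33 to -2.57) ended without any library but the second of mesoderm and the first of endoderm at 48 h, and that of *Fgf15* (-3.31 to -2.38) without any but the first of mesoderm at 48 h. *Coch* (2.52 to 2.70) lost its call without the first mesoderm UD library or the second endoderm library at UD or 48 h, and *Slc2a1* (0.93 to 1.00) without the first mesoderm library at UD or 48 h or the second endoderm UD library. *Id4* (1.58 to 1.70) lost it without the second mesoderm or the first endoderm library at either time, and *Runx1* (-1.68 to -1.39) without these or the second endoderm UD library.

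At 24 h the count of 0 became 3 with DESeq2, 65 without the filter and 56 in the direct comparison. At 5 h the 5 genes became 11 with DESeq2, 103 without the filter and 132 in the direct comparison. The 38 genes between UD libraries became 183 without the filter. The 20 genes that differed between genotypes became 45 with library totals alone, 73 with DESeq2, 185 without the filter and 229 at an adjusted p under 0.05, and ranged from 9 to 40 when 1 library was left out, with 9 to 13 genes without either mesoderm *Mtf2* null library at 48 h, the second *Mtf2* null UD library of either series or the first endoderm *Mtf2* null library at 48 h, 32 without the first mesoderm WT UD library and 40 without the first endoderm WT library at 48 h. The 264 genes of WT cells became 472 without the filter. The causes were not tested. Counts for each medium stayed within 1.5 times of 1294 and 1778 in the alternatives run for them, which did not include another threshold; at an adjusted p under 0.05 with no fold limit 6022 and 6977 genes passed.

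The replicate numbers were not taken to pair the samples, since not every pair of groups correlated: the correlation of deviations over 11037 genes between same-numbered libraries was -0.25 from UD to 48 h in mesoderm and -0.16 in endoderm, but 0.40 between the UD pairs of the 2 series (0.40 in WT and 0.52 in *Jarid2* null cells) and 0.14 between their 48 h pairs. With the replicate block the 48-library fit called 123 genes (115 of the 121) at 48 h and 3 at 5 h. In the 8-library fit the replicate block called 9 genes and the crossed block 43. Of 33 called genes that were named or in a list, that replicate block kept 9, losing *Spink1*, *Gata2*, *Bmp4*, *Zfp819*, *Kirrel2*, *Sfrp1*, *Spry4* and *Il17rd* beside those lost in the 8-library fit.

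With 2 libraries a group and 10960029 to 15032309 counts each, genes near 0 such as *Lefty1* in mesoderm limit the size of a fold that can be given.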

Other observations

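Further genes among the 121 are described here that were picked by hand after their values were seen, with no fixed list and no count of similar genes that did not differ. The imprinted genes *H19*, *Igf2*, *Peg10* and *Slc38a4* were among those relatively higher in mesoderm. *Igf2*, a growth factor gene, rose from 10.5 and 7.02 CPM to 119 and 107 CPM in mesoderm and from 6.02 and 9.39 CPM to 31.6 and 30.5 CPM in endoderm (1.67). *Slc38a4*, an amino acid transporter gene, fell in endoderm from 189 and 207 CPM to 43.4 and 36.7 CPM and ended at 128 and 105 CPM in mesoderm (1.55). *Tet2*, which encodes an enzyme of DNA demethylation, fell in both media, to 106 and 122 CPM in mesoderm and 45.5 and 51.9 CPM in endoderm (1.16).

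Some genes with roles in endocytosis or lysosomes were among the 79 relatively higher in endoderm. The endocytic receptor gene *Lrp2* rose from 249 and 303 CPM to 1260 and 1360 CPM in mesoderm and from 223 and 276 CPM to 2970 and 2550 CPM in endoderm (-1.22). Its chaperone gene *Lrpap1* reached 214 and 210 CPM and 481 and 448 CPM (-1.35), the folate receptor gene *Folr1* 30.4 and 30.2 CPM and 103 CPM in both libraries (-1.86), and the protease gene *Ctsl* 1270 and 1130 CPM in endoderm (-1.12). Also among the 79 were the enzyme genes of collagen, glycan or hyaluronan metabolism *Plod3* (-1.04), *Colgalt1* (-1.16), *Gcnt1* (-1.53), *Chst15* (-2.03), *Has2* (-2.03) and *Cemip* (-1.81). The transcription factor genes *Foxq1* (135 and 101 CPM in endoderm against 23.5 and 16.8 CPM in mesoderm at 48 h, -2.50) and *Ets1* (36 and 28.2 CPM against 5.71 and 5.2 CPM, -2.36) rose in endoderm.

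Embryoid bodies of *Mtf2* null cells offered a second readout without directed media. Levels were summed over the 159 *Mtf2* null cells of a cluster the authors placed in lateral mesoderm (1131805 UMIs). The same was done for the 33 of a cluster placed in endoderm (234783 UMIs). UMI counts were scaled to the same total as CPM, but by the UMI total alone, with no TMM factor. There was 1 library per genotype and day and therefore no test. Of 70 called genes with at least 20 UMIs, 44 (62.9%) were higher in the cluster matching the medium, and of all 8129 tested genes with as many UMIs 3996 (49.2%) had the same direction as their difference. *Bmp4* stood at 873 in the mesoderm cluster (95% counting interval 819 to 929) and 68.1 in the endoderm cluster (39.0 to 111), *Ttn* at 341 and 12.8, and *Ctsl* at 553 and 1230, each as in the directed series. *Spink1* stood at 12.4 and 1370, *Id1* at 317 and 549 and *Has2* at 197 and 12.8, the reverse of the directed series. The other *Id* genes had the order of the directed series, *Id2* at 490 and 230 and *Id3* at 535 and 413, the latter with overlapping counting intervals. *Id4*, at 13.3 and 4.26, held fewer than 20 UMIs.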
